A study of Mus musculus with 18 samples.

Results

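The chemokine ligands are a family of small secreted proteins that guide the movement of leukocytes and other cells. Their genes were taken here as every row of the deposited mouse count table whose symbol was Ccl, Cxcl, Cx3cl or Xcl followed by a number and, at most, a letter from a to d. This gave 38 of 55450 genes. RNA was sequenced from 18 female mice of C57Bl/6 J background, with 1 sample per mouse. Tumors came from 3 models. The B1/P/Rbf mice (n = 5) were Brca1fl/fl/Trp53fl/fl/TgK18GT121Tg/+, the B1/P mice (n = 5) were Brca1fl/fl/Trp53fl/fl, and the P/Rbf mice (n = 5) were Trp53fl/fl/TgK18GT121Tg/+. The normal mammary glands (n = 3) came from wild type mice. All 15 tumors carried floxed Trp53 and were induced by adenovirus expressing Cre recombinase, given by nipple injection to the ducts of adult females. The glands therefore differ from the tumors in genotype as well as in being normal tissue. The T121 transgene is driven by the keratin 18 promoter once Cre has acted, so its product, a fragment of SV40 large T antigen that inactivates the proteins of the Rb family (Rbf), is made in epithelial cells. The labels give no age at collection and no batch.

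Chemokines act on G protein-coupled receptors of leukocytes, and a small group of atypical receptors takes ligand up without signalling. CXC ligands with a glutamate-leucine-arginine (ELR) motif bind Cxcr2 and draw in neutrophils, while the interferon-inducible CXC ligands bind Cxcr3 on activated T and NK cells. Inflammatory CC ligands recruit monocytes, macrophages, eosinophils and T cells, and homeostatic ligands such as Ccl19, Ccl21a, Cxcl12 and Cxcl13 place lymphocytes within lymphoid organs and stroma. In mammary tumors such ligands are made by the tumor cells themselves and by the macrophages, fibroblasts, endothelial cells and lymphocytes around them. In bulk tissue, fewer cells of a type and less RNA per cell cannot be told apart.

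Each sample held between 27661173 and 37794889 expected counts. Values are given as CPM, the library-scaled counts of edgeR after TMM normalization, and are listed by mouse in a fixed order: 208855, 208857, 208863, 209490 and 210906 for B1/P/Rbf tumors, 287842, 287845, 290860, 287822 and 290845 for P/Rbf tumors, 225068, 225070, 246361, 255232 and 248662 for B1/P tumors, and 330154, 330155 and 330156 for normal glands. Brca1 lay at 21.1 to 45.0 CPM in B1/P/Rbf tumors, 8.13 to 28.0 CPM in B1/P tumors and 44.9 to 116 CPM in P/Rbf tumors, which keep the gene, so B1/P/Rbf tumor 208863, at the top of its range, overlapped the lowest P/Rbf tumor. In that tumor Brca1 expression is described by the study as lost only in part. The glands had 4.61 to 5.99 CPM, less than any tumor. Trp53 lay at 6.75 to 24.3 CPM in the 15 tumors and 54.4 to 71.8 CPM in the glands. Counts over whole genes do not separate the deleted exons. Markers fixed for other cell types differed widely. The glands held B cell markers (6 genes, summed level 358 to 474 CPM against 0.607 to 6.26 CPM in the tumors), T cell markers (6 genes, 223 to 334 against 2.06 to 37.3 CPM), adipocyte markers (5 genes, 9182 to 13250 against 2.76 to 172 CPM) and skeletal muscle markers (4 genes, 20490 to 40200 against 0.176 to 553 CPM), and in each list every gene was lower in all 15 tumors than in all 3 glands. Whether the glands were taken with their lymph node or underlying muscle is not stated. Epithelial markers (Epcam, Cdh1, Krt8, Krt18 and Krt19) were present in every group and summed to 2832 to 6351 CPM in B1/P/Rbf tumors, 5931 to 12260 in P/Rbf tumors, 682 to 3074 in B1/P tumors and 2070 to 2458 in glands, with B1/P tumor 246361 lowest. B1/P tumor 225070 stood apart in myeloid markers: its 7 macrophage markers summed to 3150 CPM, against 270 to 1206 CPM in the other tumors, and its 5 neutrophil markers to 482 CPM, against 6.01 to 293 CPM. It was also highest of the tumors for the 5 fibroblast markers (9312 CPM, against 564 to 4052) and for the sums of the dendritic cell and lymphatic endothelial lists. Not all genes of those 2 lists followed their sums. In B1/P tumors Itgax reached 109.9 CPM, but Zbtb46 at most 5.91 and Prox1 at most 1.26 CPM. In B1/P/Rbf tumors Zbtb46 reached 23.6 and Prox1 26.8 CPM. Tumor 225070 held the highest level of 15 tumors for 11 of the 34 ligands tested.

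Of the 38 ligand genes, 34 had enough counts to be tested, among 19186 genes in all. The other 4 were Ccl26 and Ccl27b, with no counts in any sample, Ccl21b, with at most 1 count, and Ccl1, with at most 9. The genes lie in clusters, with 12 on chromosome 11, 11 on chromosome 5, 5 on chromosome 4 and 4 on chromosome 8 (build GRCm38). The chromosome 4 genes have near-identical copies. By comparison of 31-base words, 80.6% of the words of Ccl21a, 58.8% of those of Ccl19 and 57.0% of those of Ccl27a also occur in transcripts of other genes, so their counts depend on how RSEM divided shared reads and are uncertain to that extent. In glands Gm21541, a copy of Ccl21a, held 1094 counts beside 19739 for Ccl21a, and Gm2564, a copy of Ccl19, held 1172 beside 4107 for Ccl19. In each tumor group Gm2564 held more counts than Ccl19 itself, with 55 against 38 in B1/P/Rbf, 15 against 3 in P/Rbf and 48 against 26 in B1/P tumors. Cxcl2 and Cxcl3 shared 161 words with each other, out of 2121 and 3534.

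**Figure D1:**
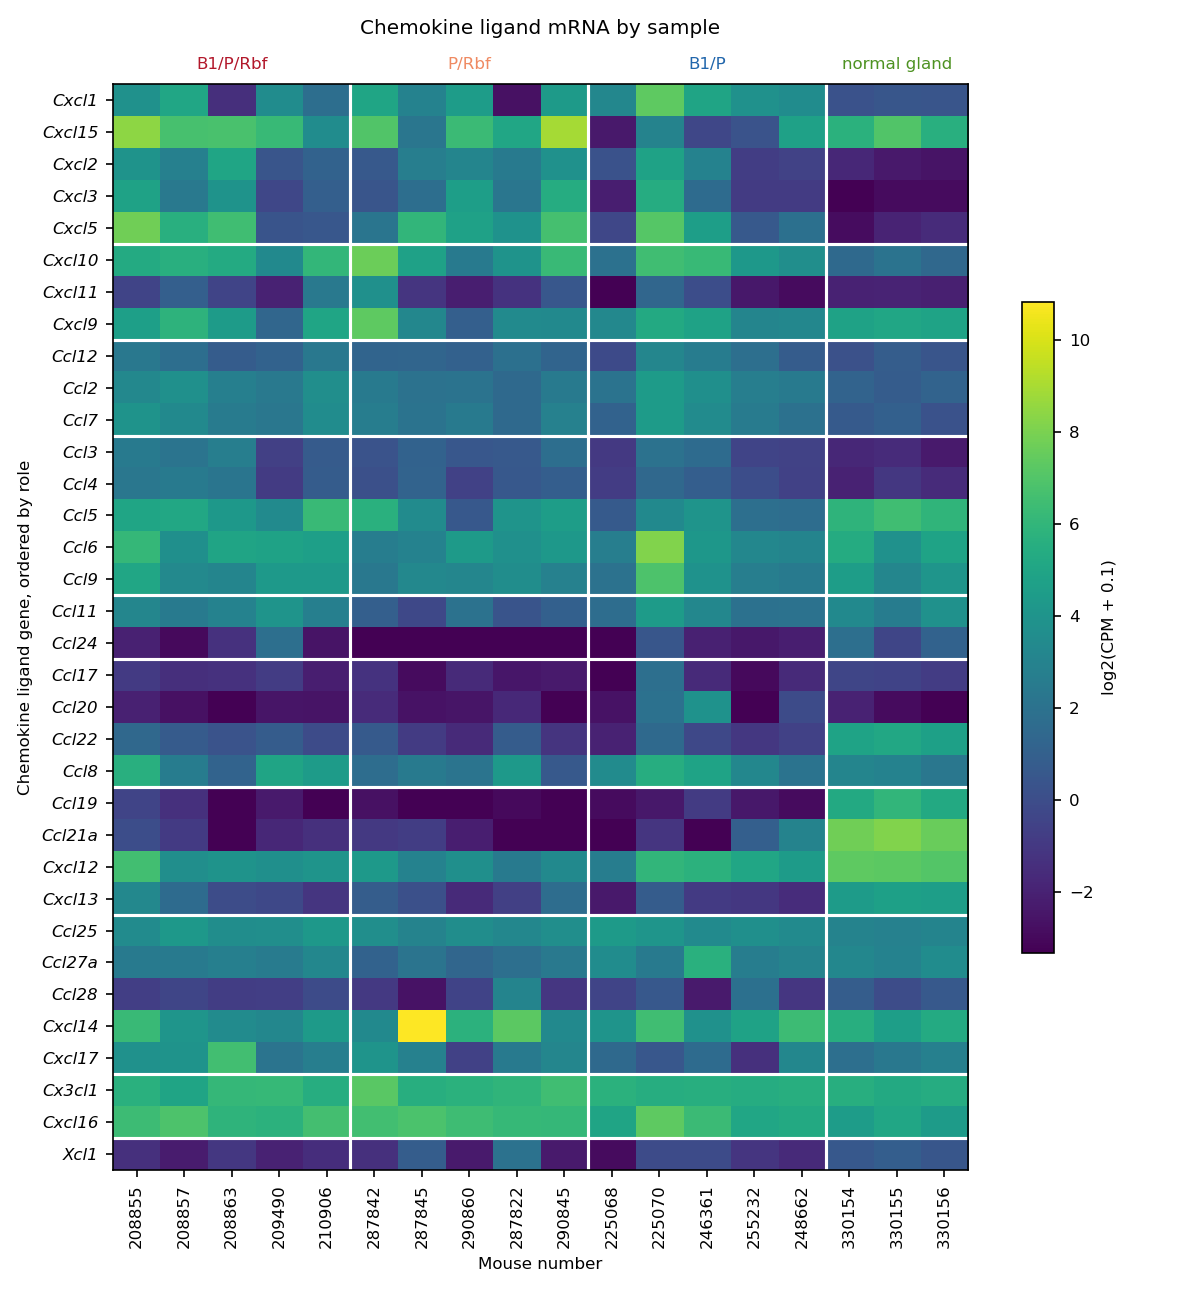
Level of the 34 tested chemokine ligands in each sample, as log2(CPM + 0.1), with genes in rows ordered by role, mice in columns and white lines between roles and groups. Ccl19, Ccl21a and Cxcl13 are bright in the 3 glands and dark in the tumors, while Cxcl2, Cxcl3 and Cxcl5 are dark in the glands and vary widely between tumors.

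The promoters of 6 ligands described below are shown here, from 250 bases to 1 base before the transcription start (RefSeq, build GRCm38.p6, written in the direction of the gene). Cxcl1, Cxcl2 and Cxcl3 are neighbouring ELR+ genes on chromosome 5. Ccl20 is the ligand raised in 3 B1/P tumors, Cxcl10 is the interferon-inducible ligand called against glands, and Cxcl15 is the ELR+ ligand that did not follow the others. Capitals mark matches on either strand to the NF-κB site consensus and, in Cxcl10, also the first run of capitals, a match to the core of an interferon-stimulated response element (GAAA, any 2 bases, GAAA).
Cxcl1 (chr5:90890995-90891244, plus strand): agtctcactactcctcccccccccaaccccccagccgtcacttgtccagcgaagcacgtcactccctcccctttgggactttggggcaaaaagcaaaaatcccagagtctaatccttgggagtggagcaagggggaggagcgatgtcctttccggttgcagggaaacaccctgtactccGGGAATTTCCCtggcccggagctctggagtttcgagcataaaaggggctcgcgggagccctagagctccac
Cxcl2 (chr5:90903649-90903898, plus strand): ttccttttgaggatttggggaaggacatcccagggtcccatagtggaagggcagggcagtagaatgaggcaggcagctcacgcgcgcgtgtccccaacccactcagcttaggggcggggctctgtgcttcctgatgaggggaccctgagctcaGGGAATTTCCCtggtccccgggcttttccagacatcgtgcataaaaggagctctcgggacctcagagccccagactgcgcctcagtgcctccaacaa
Cxcl3 (chr5:90785851-90786100, plus strand): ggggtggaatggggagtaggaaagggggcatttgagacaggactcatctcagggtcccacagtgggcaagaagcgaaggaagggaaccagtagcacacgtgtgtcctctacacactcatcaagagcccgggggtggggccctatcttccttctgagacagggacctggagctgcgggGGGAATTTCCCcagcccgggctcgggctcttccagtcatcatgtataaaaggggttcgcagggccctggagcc
Ccl20 (chr1:83116516-83116765, plus strand): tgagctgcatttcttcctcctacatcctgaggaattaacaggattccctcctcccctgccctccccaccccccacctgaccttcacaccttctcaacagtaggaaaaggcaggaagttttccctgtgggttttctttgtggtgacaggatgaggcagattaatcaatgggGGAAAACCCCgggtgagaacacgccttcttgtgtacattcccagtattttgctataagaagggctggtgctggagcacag
Cxcl10 (chr5:92348890-92349139, minus strand): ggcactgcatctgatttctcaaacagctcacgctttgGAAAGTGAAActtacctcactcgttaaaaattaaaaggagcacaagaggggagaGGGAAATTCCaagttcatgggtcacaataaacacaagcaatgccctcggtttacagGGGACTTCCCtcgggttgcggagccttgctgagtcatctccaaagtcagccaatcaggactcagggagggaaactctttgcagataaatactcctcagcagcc
Cxcl15 (chr5:90794284-90794533, plus strand): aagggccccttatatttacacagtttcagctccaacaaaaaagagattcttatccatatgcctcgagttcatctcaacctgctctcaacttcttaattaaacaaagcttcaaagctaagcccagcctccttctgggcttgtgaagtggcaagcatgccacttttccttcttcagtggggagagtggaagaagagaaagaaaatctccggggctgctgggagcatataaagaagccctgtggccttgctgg

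Cxcl1, Cxcl2 and Cxcl3 carried the same run, GGGAATTTCCC, which begins 71, 97 and 73 bases before the start and reads as the consensus on both strands. Ccl20 had 1 match, on the opposite strand and 80 to 71 bases before the start. Cxcl10 had 2 matches to the NF-κB consensus, beginning 159 and 103 bases before the start, and the response element core at 213 to 204 bases. Cxcl15 had neither. Promoter sequence was at hand for 27 of the 38 ligands, and 7 of these (Ccl9, Ccl20, Ccl27a, Cxcl1, Cxcl2, Cxcl3 and Cxcl10) held the NF-κB consensus on either strand within 250 bases before to 50 bases after a start, beside 4.51% of 32851 mouse promoters of the same length. On either strand, the response element core was found in Ccl19, Cxcl10 and Cxcl14, beside 3.44% of all promoters. Such a match describes letters in a window and does not show binding, and Cxcl1 to Cxcl3 are close relatives. No promoter entry was at hand for Ccl2, Ccl4, Ccl5, Ccl7, Ccl11, Ccl24, Ccl26, Cxcl5, Cxcl11, Cxcl16 and Cxcl17.

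The first comparison asked how the ligands differ between tumors with and without the T121 transgene when both carry floxed Brca1. Cxcl15, Cxcl17 and Ccl5 were higher and Ccl20 was lower in the B1/P/Rbf group than in the B1/P group. These 3 higher calls of 34 ligands (8.82%) stand beside 7.36% of all genes tested that were called higher, and the 1 lower call, Ccl20 (2.94%), beside 9.29% called lower, so the share of ligands called was close to the background among higher genes and below it among lower ones. The median log2 fold change of the ligands was 0.10, against −0.06 for all genes. In P/Rbf tumors, where Brca1 status differs as well, Cxcl15 was higher than in B1/P tumors and Ccl11, Ccl20, Ccl24 and Ccl27a were lower. This made 1 higher call (2.94%, beside 8.43% of all genes) and 4 lower calls (11.8%, beside 10.8%), with a ligand median of −0.11 against −0.05. Both comparisons use the same B1/P tumors. Both shares of lower calls include Ccl20, which passed the filter on low counts only through B1/P tumors and is not taken as support. That of P/Rbf also includes Ccl24, which had 0 counts in P/Rbf tumors and passed only through other samples. It is not taken as support either. Fold changes are on the log2 scale, followed in brackets by their standard error and the Benjamini-Hochberg adjusted p of edgeR's quasi-likelihood test.

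Cxcl15, on chromosome 5 from 90794534 to 90803067, encodes an ELR+ ligand first known as lungkine and made by epithelia. It had 343, 104, 109.8, 75.2 and 11.7 CPM in the B1/P/Rbf tumors and 126, 4.60, 81.5, 33.1 and 482 CPM in the P/Rbf tumors. In the B1/P tumors it had 0.0954, 8.09, 0.704, 1.12 and 27.5 CPM and in glands 51.9, 125 and 48.8 CPM. Thus 4 of 5 tumors in each T121 group exceeded all B1/P tumors, and B1/P/Rbf tumor 210906 and P/Rbf tumor 287845 fell within the B1/P range. Relative to B1/P, the difference was 4.10 (1.31, adjusted p = 0.0401) in the B1/P/Rbf and 4.28 (1.32, adjusted p = 0.0314) in the P/Rbf group. All B1/P tumors lay below all glands, at a log2 fold change of −3.33 (1.34, adjusted p = 0.0647), which was not called in the full fit but was called without 248662 (0.0151), by DESeq2 (0.0207) and with quantile normalization (0.0303). Both calls between tumor groups were close to the threshold. Leaving out single tumors gave an adjusted p of 0.0149 to 0.0865 for B1/P/Rbf, where the call was lost without any one of 208855, 208857, 208863, 225068, 225070, 246361 and 255232, and of 0.0122 to 0.0986 for P/Rbf, where it was lost without 225070, 246361, 255232 or 290845. Fits of only the groups compared called neither (0.0594 and 0.0888), nor did limma-voom with quantile normalization and the study's filter (0.65 and 0.703), and the P/Rbf call was also lost with quantile normalization (0.0536) and with a term for 2 inferred library sets (0.253). The epithelial marker sum moved in the same direction (2832 to 6351 CPM in B1/P/Rbf and 5931 to 12260 in P/Rbf, against 683 to 3074 in B1/P tumors), and its part in the result was not tested.

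**Figure D2:**
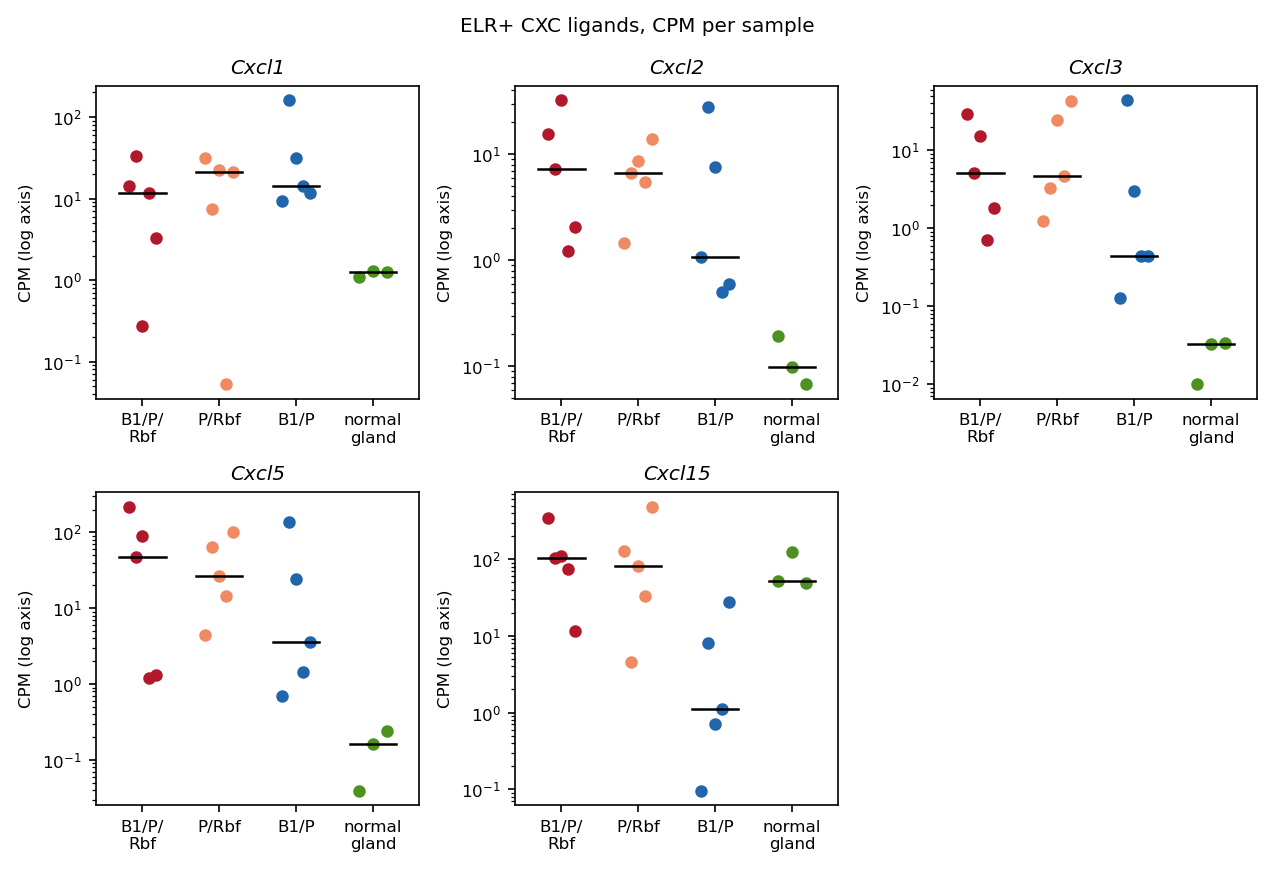
CPM per sample (points, log axis) of the ELR+ CXC ligands Cxcl1, Cxcl2, Cxcl3, Cxcl5 and Cxcl15 in the 4 groups, with a black line at each group's median and values of 0 drawn at 0.01. Cxcl2, Cxcl3 and Cxcl5 lie above all 3 glands in all 15 tumors, while Cxcl15 is lowest in B1/P tumors.

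Cxcl17, on chromosome 7 from 25400053 to 25412886, is a ligand of mucosal epithelia. It measured 14.3, 15.5, 91.8, 4.21 and 6.59 CPM in B1/P/Rbf tumors against 2.73, 1.36, 3.02, 0.296 and 9.24 CPM in B1/P tumors. The P/Rbf tumors had 16.2, 7.41, 0.557, 5.50 and 8.82 CPM. Tumor 208863, also the highest of its group for Brca1, alone carried the top value, and 3 of 5 tumors of that group exceeded all B1/P tumors. Relative to B1/P the log2 fold change was 2.99 (0.96, adjusted p = 0.0406). Without 208863 it was 1.61 with adjusted p = 0.21, and the call was also lost without any one of 208857, 225068, 225070, 246361 and 255232 (0.0528 to 0.0798), with quantile normalization, with only the groups compared and with the library-set term (0.051 to 0.0726). The P/Rbf group differed from the B1/P group by 1.21 (0.90, adjusted p = 0.355) and from the B1/P/Rbf group by 1.78 (0.91, adjusted p = 0.352) (B1/P/Rbf higher), neither called.

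Ccl5, on chromosome 11 from 83525778 to 83530518, is a ligand of Ccr1 and Ccr3 made in large part by T and NK cells. Its level was 31.8, 35.7, 18.6, 10.9 and 78.3 CPM in the B1/P/Rbf group. The B1/P group had 1.49, 10.6, 16.1, 3.52 and 3.25 CPM, so 4 of 5 B1/P/Rbf values exceeded it entirely. P/Rbf tumors had 50.4, 11.5, 1.39, 16.0 and 23.1 CPM. Relative to the B1/P group, B1/P/Rbf tumors differed by 2.32 (0.76, adjusted p = 0.0462) and P/Rbf tumors by 1.55 (0.75, adjusted p = 0.151), of which only the first was called. The B1/P/Rbf call held only without 209490 or without 246361, and leaving out any one of the other 8 tumors took it above the threshold, up to 0.127 without 210906. It was also lost without the filter on low counts (0.0516) and with the library-set term (0.17). The T121 groups differed from each other by 0.78 (0.73, adjusted p = 0.657), which was not called. T cell markers overlapped widely, with sums of 2.06 to 25.4 CPM (B1/P/Rbf) and 6.52 to 37.3 CPM (B1/P), and so did the 3 NK cell markers, with 0.454 to 0.965 CPM and 0.254 to 2.11 CPM. The part of T and NK cells in the Ccl5 result was not tested.

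Ccl20, on chromosome 1 from 83116766 to 83119167, is the ligand of Ccr6, which dendritic cells, B cells and subsets of T cells carry. It was near the limit of detection in most samples. The B1/P tumors held 0.0636, 3.76, 14.7, 0 and 0.851 CPM, from 2, 127, 583, 0 and 27 counts. The highest B1/P/Rbf tumor had 0.142 CPM, the highest P/Rbf tumor 0.230 CPM and the highest gland 0.156 CPM. Only B1/P tumors 246361, 225070 and 248662 exceeded these values, and the gene passed the filter on low counts only through them, so its calls against B1/P describe this group and are not counted as support. Tumors 225068 and 255232 lay within the range of the other groups. Relative to B1/P, log2 fold changes were −5.77 (1.51, adjusted p = 0.0157) for B1/P/Rbf and −5.0 (1.44, adjusted p = 0.0233) for P/Rbf tumors. Without any one of the 3 Ccl20 fell below the filter. With the genes of the full fit kept, an alternative added after the data were seen, the B1/P/Rbf call remained without 246361 at −4.05 (adjusted p = 0.0499) and the P/Rbf call was lost, at −3.28 (0.0853). Both remained without any one of the other tumors. Limma-voom with quantile normalization called neither (adjusted p = 0.182 and 0.35), and with the library-set term the P/Rbf difference was −1.82 (0.457).

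Ccl11 and Ccl24, the eotaxins that attract eosinophils through Ccr3, were lower in P/Rbf than in B1/P tumors. Ccl11, on chromosome 11 from 82057823 to 82062955, had 1.84, 0.725, 4.00, 1.18 and 1.94 CPM in the P/Rbf group. The B1/P group had 3.27, 22.1, 9.30, 3.84 and 4.00 CPM and the B1/P/Rbf group 8.88, 5.34, 7.72, 15.7 and 6.78 CPM. All but 1 of the P/Rbf tumors lay below every B1/P tumor, and all 5 lay below the whole B1/P/Rbf group. The log2 fold change against B1/P was −2.13 (0.58, adjusted p = 0.0171), and without 225070 it was −1.40 with adjusted p = 0.0553. The call was also lost with quantile normalization (0.0911), with only the groups compared (0.0697) and with the library-set term, at −1.01 (0.337). The fibroblast markers summed to 806 to 2554 CPM in P/Rbf, 1792 to 9312 in B1/P and 564 to 3313 in B1/P/Rbf tumors and 1110 to 2109 in glands, and their part in the result was not tested. The B1/P/Rbf group was higher than the P/Rbf group by 2.19 (0.58, adjusted p = 0.0981), which edgeR did not call. Ccl24, on chromosome 5 from 135569937 to 135573049, had 0 counts in all 5 P/Rbf tumors. It had 0, 44, 6, 3 and 4 counts in the B1/P tumors and 5, 1, 11, 140 and 2 in the B1/P/Rbf tumors. Set against a floor of 3 counts over the P/Rbf group, the pooled level was at least 19.3-fold higher for B1/P and at least 51.4-fold higher for B1/P/Rbf, most of it from 225070 and 209490. The P/Rbf against B1/P difference was called at adjusted p = 0.0408, and this was lost without 225070, without 246361 or without any one of the P/Rbf tumors (0.0538 to 0.104), with quantile normalization (0.159) and with the library-set term (0.208).

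Ccl27a, on chromosome 4 from 41769467 to 41774247, a ligand of Ccr10 best known from skin keratinocytes, had 2.13, 4.23, 2.48, 3.50 and 5.24 CPM in the P/Rbf group. The B1/P group had 11.9, 5.57, 49.9, 6.36 and 8.07 CPM. These groups did not overlap, although the highest P/Rbf and lowest B1/P values were close, and 246361 lay far above the rest. P/Rbf tumors were lower by a log2 fold change of −2.22 (0.53, adjusted p = 0.00925), and it was called without each tumor in turn, at −1.18 without 246361. It was lost with quantile normalization (0.0704), with only the groups compared (0.0548) and with the library-set term, at −1.04 (0.261). The B1/P/Rbf group had 5.39, 5.50, 6.70, 5.76 and 9.19 CPM and differed by −1.33 (0.52, adjusted p = 0.0873) from B1/P and by 0.89 (0.51, adjusted p = 0.42) from P/Rbf tumors. The first of these was −0.30 without 246361 (0.593) and −1.55 without 225070, which alone of the left-out tumors gave a call (0.0431). It was also called by DESeq2 (0.0435) and with the library-set term (0.0319). The 5 myoepithelial markers summed to 329 to 1844 CPM in B1/P, 64.9 to 1203 in P/Rbf and 34.8 to 275 in B1/P/Rbf tumors. Tumor 246361 was highest, and 248662 had nearly the same sum (1822 CPM) with 8.07 CPM of Ccl27a. The part of myoepithelial cells in the result was not tested.

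**Figure D3:**
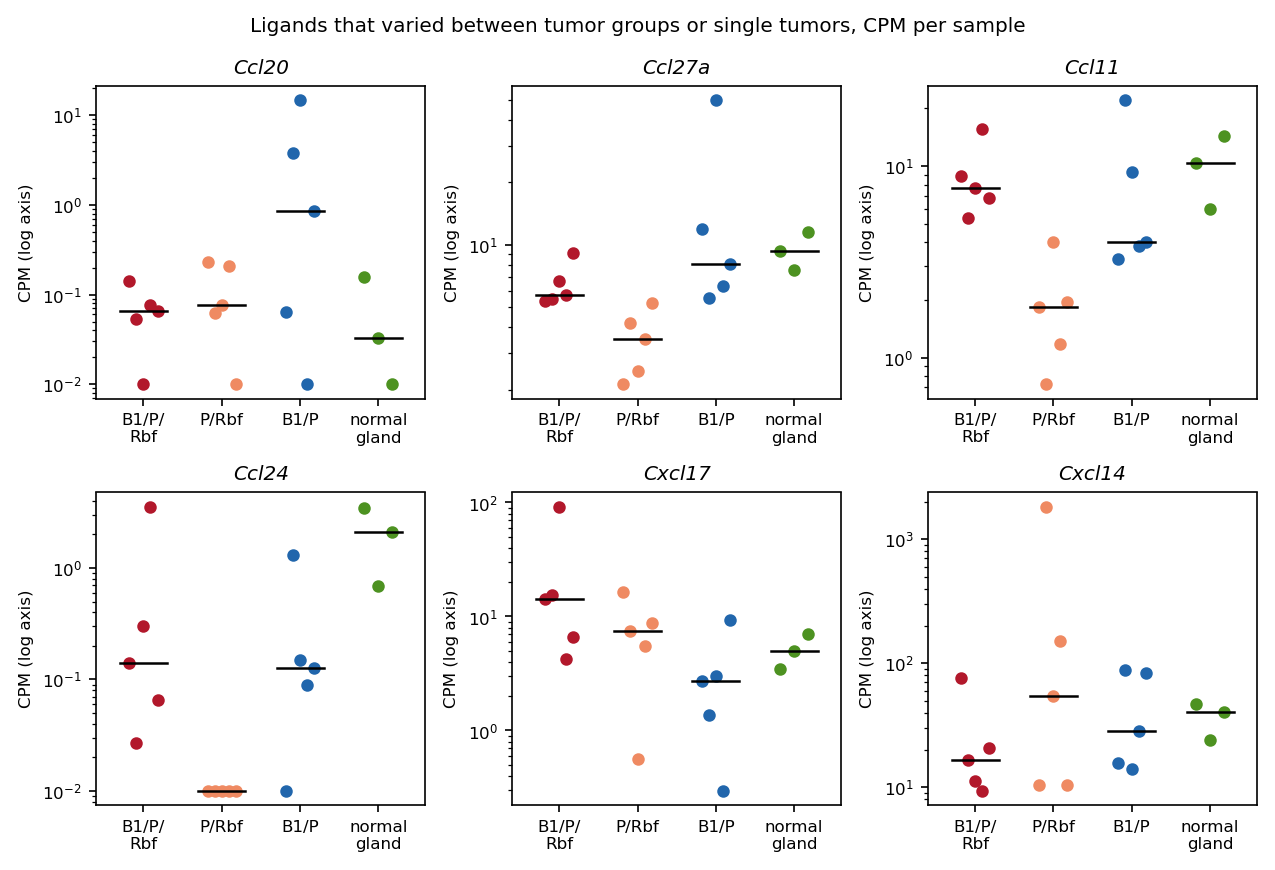
CPM per sample (points, log axis) of Ccl20, Ccl27a, Ccl11, Ccl24, Cxcl17 and Cxcl14 in the 4 groups, with a black line at each group's median and values of 0 drawn at 0.01. Ccl24 is at 0 in all P/Rbf tumors, Ccl20 is raised in 3 B1/P tumors, and Cxcl14 reaches 1825 CPM in P/Rbf tumor 287845.

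The comparison of B1/P/Rbf with P/Rbf tumors asked what floxed Brca1 adds when the T121 transgene is present. No ligand was called by edgeR's quasi-likelihood test in either direction, where 0.219% of all genes were called higher and 0.0625% lower. Of the 34 ligands, 7 had an unadjusted p below 0.05 (20.6%, beside 16.1% of all genes). DESeq2 called 3, with Ccl11 and Ccl24 higher (5.88%, beside 3.08% of all genes) and Cxcl14 lower (2.94%, beside 2.26%) in the B1/P/Rbf group. The ligand median was a log2 fold change of 0.81, against −0.01 for all genes, so most ligands had a positive difference that did not pass the test. Cxcl14, a ligand of epithelia whose receptor is unsettled, had 10.4, 1825, 55.0, 152 and 10.4 CPM in the P/Rbf group. The B1/P/Rbf group had 75.9, 16.6, 11.2, 9.38 and 20.9 CPM and the B1/P group 15.8, 88.7, 14.1, 28.2 and 83.9 CPM. In tumor 287845 this gene made up 83.4% of the summed ligand CPM, and of the other P/Rbf tumors only 287822 lay above the whole B1/P/Rbf group. B1/P/Rbf tumors differed from P/Rbf tumors by −3.94 (1.22, adjusted p = 0.135) and P/Rbf from B1/P tumors by 3.15 (1.18, adjusted p = 0.0688). The edgeR fit called neither, and DESeq2 called both (0.00489 and 0.00928). Without 287845 these differences were −1.09 (adjusted p = 0.584) and 0.30 (0.828). The difference from B1/P was called without 287842 (0.0386) or 290845 (0.0455). A division of the libraries into 2 sets, inferred in earlier work and named in no label, puts all B1/P/Rbf tumors with B1/P tumors 225068, 225070 and 246361 and all P/Rbf tumors with the glands and the remaining B1/P tumors, so set and genotype cannot be told apart in this comparison except through the B1/P tumors.

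The comparisons with normal gland asked which ligands distinguish each kind of tumor from the tissue of origin, and all 3 use the same 3 glands. Of 34 ligands, 10 were higher in B1/P/Rbf tumors (29.4%, beside 17.1% of all genes) and 5 lower (14.7%, beside 20.0%). In the B1/P group 12 were higher (35.3%, beside 16.8%) and 6 lower (17.6%, beside 16.9%). The 12 include Ccl20, which passed the filter on low counts only through B1/P tumors and is not taken as support. In the P/Rbf group 9 were higher (26.5%, beside 17.4%) and 7 lower (20.6%, beside 20.3%). The higher calls of each group also include Cxcl2, Cxcl3, Cxcl5 and Ccl3, with at most 7 counts in a gland, and Ccl4, with 4, 12 and 7. These genes passed the filter only because of the tumors, where they are high, and are not taken as support. Among the lower calls in P/Rbf tumors, Ccl24 had 0 counts there and passed only through other samples, so it is not taken as support either. With all of these counted, the share called higher was above the background in each comparison. The share called lower was close to it, or below it in B1/P/Rbf tumors. The ligand medians were 0.28, 0.83 and 0.55 on the log2 scale, against 0.05, 0.12 and 0.06 for all genes. Placing Ccl24 at its bound left these and the other medians as given. The scaling factors of the glands were 0.788 to 0.858 and those of the tumors 0.952 to 1.11, and without this scaling the median of all genes moved to 0.42, 0.47 and 0.33. The ligands then called were 11 higher and 5 lower, 13 higher and 5 lower, and 11 higher and 7 lower, with the same order of groups. The shares higher were 32.4%, 38.2% and 32.4%, beside 26.7%, 26.7% and 24.6% of all genes, so they were closer to the background than with TMM. The excess of higher calls depended on the fit. With a term for the 2 library sets, 0 ligands were higher in B1/P/Rbf tumors (beside 9.26% of all genes) and 1 in B1/P tumors (2.94%, beside 12.9%), while P/Rbf tumors had 9 higher calls (beside 18.0%). Without gland 330156, 2 ligands were higher in B1/P tumors (5.88%, beside 8.96%), and without 330154 or 330155 5 were (14.7%, beside 9.69% and 10.8%). With quantile normalization B1/P tumors had 7 ligands higher (20.6%, beside 18.5%) and 8 lower (23.5%, beside 18.1%).

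**Figure D4:**
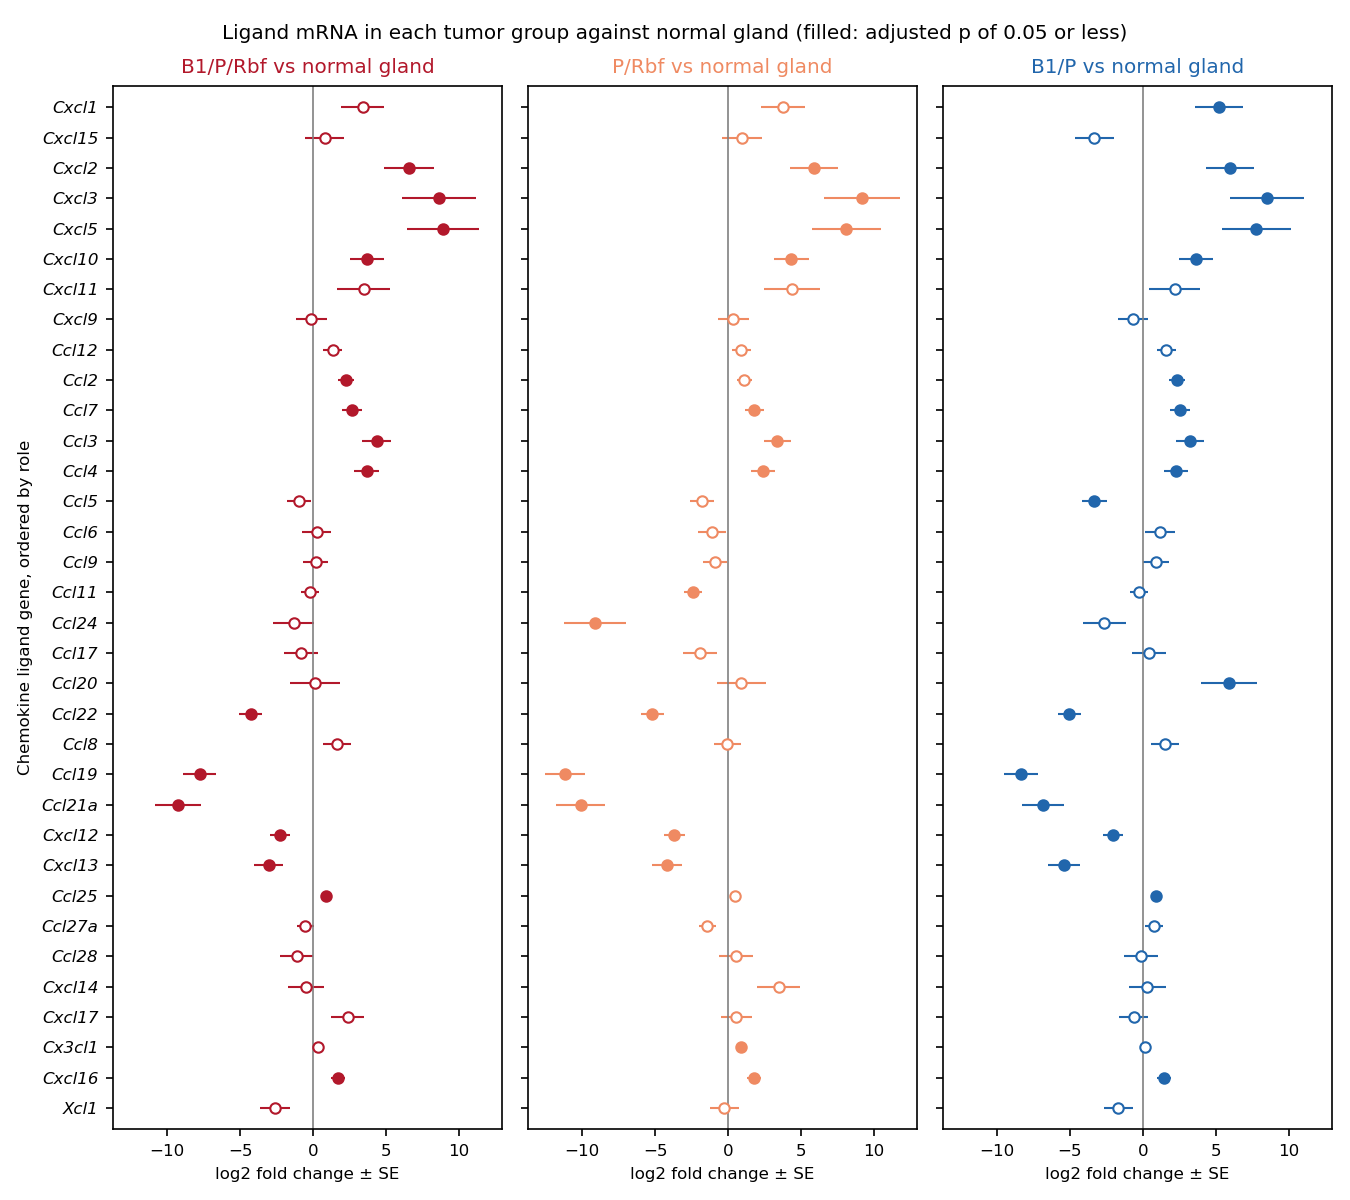
Log2 fold change (points) with its standard error (bars) of each of the 34 ligands in each tumor group relative to normal gland, with filled points for an adjusted p of 0.05 or less. The ELR+ ligands Cxcl2, Cxcl3 and Cxcl5 lie farthest to the right and Ccl19 and Ccl21a farthest to the left in all 3 panels.

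Of the ligands, the ELR+ genes Cxcl3, Cxcl5 and Cxcl2 had the largest fitted rises in each tumor group. They passed the filter on low counts only through tumors, where they are high, so their calls are not counted as support. Cxcl5, on chromosome 5 from 90759360 to 90761624, had 0.0391, 0.164 and 0.237 CPM in the glands. It had 218, 47.8, 88.8, 1.19 and 1.33 CPM in the B1/P/Rbf, 4.43, 64.6, 26.9, 14.7 and 102 CPM in the P/Rbf and 0.699, 136, 24.4, 1.45 and 3.63 CPM in the B1/P group. Every tumor lay above every gland, but within each tumor group the values spread widely, and 209490, 210906, 225068 and 255232 stayed below 2 CPM. Its log2 fold changes relative to gland were 8.87 (2.46, adjusted p = 0.00962), 8.12 (2.40, adjusted p = 0.0134) and 7.76 (2.37, adjusted p = 0.018) in B1/P/Rbf, P/Rbf and B1/P tumors. Limma-voom with quantile normalization called Cxcl5 in none of them (adjusted p = 0.096, 0.0796 and 0.191), and the library-set term gave 4.46 (0.231) for B1/P/Rbf and 4.05 (0.164) for B1/P tumors. Cxcl2, on chromosome 5 from 90903871 to 90905938, had 0.195, 0.0982 and 0.0677 CPM in glands. Tumor values were 15.4, 7.20, 32.4, 1.22 and 2.08 CPM (B1/P/Rbf), 1.47, 6.65, 8.61, 5.47 and 14.1 CPM (P/Rbf) and 1.08, 28.1, 7.62, 0.503 and 0.599 CPM (B1/P), again above every gland. The fold changes were 6.57 (1.69, adjusted p = 0.00592), 5.89 (1.64, adjusted p = 0.00958) and 5.95 (1.65, adjusted p = 0.0103). Cxcl3, on chromosome 5 from 90786103 to 90789600, had 2 counts in the 3 glands together. It measured 29.0, 5.13, 15.4, 0.71 and 1.82 CPM in the B1/P/Rbf, 1.24, 3.31, 24.6, 4.68 and 43.0 CPM in the P/Rbf and 0.127, 43.9, 3.02, 0.444 and 0.441 CPM in the B1/P group. The ratio of pooled counts to the glands was 444 (123 to 3670), 633 (175 to 5230) and 411 (114 to 3390), with exact 95% intervals that cover counting error only. The adjusted p was 0.0138, 0.0103 and 0.0162, in the order B1/P/Rbf, P/Rbf and B1/P. Without 225070, which had the highest Cxcl3 level of the B1/P tumors, the fitted log2 fold change of that group fell from 8.48 to 5.25 and was still called (0.0395). With the library-set term Cxcl2 and Cxcl3 were called in neither B1/P/Rbf nor B1/P tumors (0.205 to 0.402), and with quantile normalization their B1/P calls were lost (0.0522 and 0.0965).

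Cxcl1, on chromosome 5 from 90891241 to 90893115, behaved less evenly. The glands had 1.09, 1.28 and 1.25 CPM, close to each other. B1/P/Rbf tumors had 14.3, 33.7, 0.276, 11.8 and 3.31 CPM, P/Rbf tumors 31.5, 7.54, 22.4, 0.0526 and 21.2 CPM and B1/P tumors 9.22, 161, 31.1, 14.1 and 11.8 CPM. Tumors 208863 and 287822 lay below all glands, although their Cxcl2 levels were 32.4 and 5.47 CPM. The difference from gland was called for B1/P, at 5.23 (1.64, adjusted p = 0.0213) (lost with quantile normalization, 0.0888, and the library-set term, 0.123), and not for B1/P/Rbf, at 3.39 (1.49, adjusted p = 0.0842), or P/Rbf, at 3.77 (1.52, adjusted p = 0.0603). DESeq2 called both of these (0.0124 and 0.0051), the fit of only the groups compared called the first (0.0479), and that without TMM (0.0445) or without 287822 (0.0211) the second. The 5 neutrophil markers summed to 2.37 to 4.19 CPM in glands and, in the same order of groups, to 12.3 to 104, 6.01 to 50.5 and 7.12 to 482 CPM in tumors. Every tumor sum exceeded every gland sum, although only 1 of the 5 genes did so on its own and Ly6g, a defining gene, had 0 counts in at least 1 sample. The part of neutrophils in these rises was not tested. Several calls were lost when 1 gland was left out. Those of Cxcl3 and Cxcl5 in B1/P tumors were lost without any one of the 3 glands (0.0591 to 0.0729), as were that of Cxcl1 in B1/P tumors (0.0719 to 0.0783) and that of Cxcl3 in B1/P/Rbf tumors (0.0503 to 0.058). Cxcl5 in P/Rbf tumors was lost without 330154 (0.0576) and Cxcl2 in B1/P tumors without 330156 (0.0532).

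Of the interferon-inducible ligands of Cxcr3, Cxcl10 was higher in all 3 tumor groups, while edgeR called Cxcl9 and Cxcl11 in none. DESeq2 called Cxcl11 higher in B1/P/Rbf and P/Rbf tumors (0.0442 and 0.0101). Cxcl10, on chromosome 5 from 92346638 to 92348889, had 2.77, 4.09 and 2.64 CPM in glands. It had 39.4, 48.2, 39.6, 10.6 and 67.4 CPM (B1/P/Rbf), 199, 27.5, 5.59, 15.2 and 75.7 CPM (P/Rbf) and 3.81, 89.5, 73.0, 18.3 and 12.7 CPM (B1/P) in tumors, where 225068 overlapped the glands. In that order, log2 fold changes were 3.69 (1.16, adjusted p = 0.0192), 4.35 (1.2, adjusted p = 0.00915) and 3.64 (1.16, adjusted p = 0.0226). The calls in B1/P/Rbf and B1/P tumors were lost without any one of the glands (0.0506 to 0.0878) and with the library-set term (0.414 and 0.163). Quantile normalization lost those in B1/P and P/Rbf tumors (0.0958 and 0.0578). Cxcl9, chosen for description after its values were seen, had 28.0, 32.8 and 29.9 CPM in glands and 2.41 to 56.8, 1.82 to 163 and 8.58 to 38.9 CPM in those 3 tumor groups, which all overlapped the glands. P/Rbf tumor 287842 held the highest tumor value of Cxcl9, Cxcl10 and Cxcl11, at 163, 199 and 13.8 CPM. The mouse Cxcl11 gene is annotated as a polymorphic pseudogene in this release, so its counts may not stand for protein.

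The inflammatory CC ligands of monocytes and macrophages were mostly higher in tumors. Ccl3, a ligand of Ccr1 on chromosome 11 from 83647844 to 83649355, had 0.195, 0.229 and 0.102 CPM in glands. It had 5.33, 4.26, 6.56, 0.533 and 1.59 CPM (B1/P/Rbf), 1.15, 2.08, 1.32, 1.47 and 3.30 CPM (P/Rbf) and 0.413, 3.88, 2.94, 0.651 and 0.599 CPM (B1/P) in tumors, and every tumor lay above every gland. Its log2 fold changes in these groups were 4.35 (1.00, adjusted p = 0.00259), 3.38 (0.95, adjusted p = 0.01) and 3.25 (0.94, adjusted p = 0.0139). The calls for B1/P and P/Rbf were lost without gland 330156, at 0.07 and 0.0526, and those for B1/P/Rbf and B1/P with the library-set term (0.17 and 0.169). Ccl3 passed the filter on low counts only through tumors, so its calls are not counted as support. Its neighbour Ccl4 and the Ccr2 ligand Ccl7 were called higher in all 3 tumor groups and Ccl2, also a Ccr2 ligand, in the B1/P/Rbf and B1/P groups, with log2 fold changes between 1.80 and 3.66. The Ccl4 calls for B1/P and P/Rbf were lost without gland 330154 or 330156 (0.0979 to 0.143) and without 225070, 246361, 287845, 290845 or, for B1/P, gland 330155 (0.0513 to 0.0843), and the Ccl7 call for P/Rbf without 290860, 290845 or any one gland (0.0584 to 0.141). With the library-set term the calls of Ccl4 and Ccl7 for B1/P/Rbf and B1/P and of Ccl2 for B1/P/Rbf were lost (0.0977 to 0.319), and without the filter those of Ccl4 for B1/P and Ccl7 for P/Rbf (0.0622 and 0.0564). These genes fall outside the rule for naming and were picked after their values were seen. Ccl2 had 2.15, 1.67 and 2.17 CPM in glands and 5.28 to 13.7, 2.71 to 5.48 and 4.16 to 21.4 CPM in the tumor groups. All tumors exceeded all glands, and the P/Rbf difference of 1.12 (0.51, adjusted p = 0.0939) was called with quantile normalization, without TMM and with only the groups compared (0.0154 to 0.0395), but not in the full fit. The Ccr1 ligand Ccl6 was not called by edgeR in any comparison of the full fit. It reached 279.7 CPM in B1/P tumor 225070, against 41.1, 14.3 and 29.7 CPM in glands and 6.21 to 68.8 CPM in the other tumors. P/Rbf tumors differed from B1/P tumors by −2.28 (0.90, adjusted p = 0.0848), which DESeq2 called (0.027), and by 0.33 without that tumor. The sum of macrophage markers overlapped between all groups (269.6 to 879, 282 to 915, 403 to 3150 and 461 to 594 CPM for B1/P/Rbf, P/Rbf, B1/P and gland), with Lyz2 the largest part in glands. Of the 7 genes, Cd68 (17.4 to 86.0 against 9.11 to 15.4 CPM) and Adgre1 (10.7 to 74.5 against 6.32 to 10.6 CPM) lay above all glands in all 15 tumors, as Ccl3 and Ccl2 did. Mrc1 went the other way in P/Rbf tumors, which all lay below all glands (3.854 to 14.81 against 20.98 to 38.26 CPM). In B1/P/Rbf and B1/P tumors its range spanned that of the glands. Lyz2 ran from 79.81 CPM in a P/Rbf tumor to 1949 CPM in a B1/P tumor, against 278.2 to 339.7 CPM in glands. The part of macrophages in the ligand rises was not tested.

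The homeostatic lymphoid ligands Ccl19, Ccl21a and Cxcl13, and with them Ccl22 and Cxcl12, were called lower in all 3 tumor groups. Ccl21a, on chromosome 4 from 42772860 to 42773993, which with Ccl19 draws Ccr7-bearing T cells and dendritic cells into lymph nodes, had 214, 281 and 192 CPM in the glands. In tumors it fell to 0.936, 0.432, 0, 0.203 and 0.292 CPM (B1/P/Rbf), 0.403, 0.505, 0.127, 0 and 0 CPM (P/Rbf) and 0, 0.355, 0, 1.83 and 7.91 CPM (B1/P), so the lowest gland stood far above the highest tumor, 248662. Its fitted log2 fold changes in that order were −9.25 (1.59, adjusted p = 0.000259), −10.10 (1.66, adjusted p = 0.000163) and −6.83 (1.43, adjusted p = 0.00158). Ccl19, on chromosome 4 from 42754525 to 42756577, had 39.1, 64.5 and 38.5 CPM in glands and at most 0.652 CPM in a tumor. The P/Rbf tumors held 3 Ccl19 counts together against 4107 in the glands, a pooled ratio of 2770 (exact 95% interval 947 to 13400, counting error only). Summed with its copy Gm2564 the counts were 18 and 5279, a ratio of 593 with a lower 95% limit of 375. For B1/P/Rbf and B1/P tumors the ratio was 226 and 314 for Ccl19 alone and 118 and 142 with the copy. For Ccl21a, summing with Gm21541 took the ratio from 624 to 580 in B1/P/Rbf and from 1140 to 727 in P/Rbf tumors, and gave 94.7 in B1/P tumors. The fitted log2 fold changes of Ccl19 were −7.79 (1.15, adjusted p = 6.3e-05) for B1/P/Rbf and −8.34 (1.18, adjusted p = 5.28e-05) for B1/P. With the library-set term the Ccl21a call for B1/P/Rbf was lost (adjusted p = 0.152), as were those of Cxcl13 for B1/P/Rbf and Cxcl12 for B1/P/Rbf and B1/P (0.0813 to 0.0969).

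Cxcl13, on chromosome 5 from 95956951 to 95961068, which attracts Cxcr5-bearing B cells to follicles, had 21.8, 26.6 and 23.9 CPM in glands. It had 9.59, 2.94, 0.882, 0.736 and 0.357 CPM (B1/P/Rbf), 1.73, 1.01, 0.228, 0.553 and 3.20 CPM (P/Rbf) and 0.0954, 1.66, 0.427, 0.384 and 0.252 CPM (B1/P) in tumors, all below the glands, with 208855 highest. Its log2 fold changes were −3.05 (0.98, adjusted p = 0.0214), −4.17 (1.02, adjusted p = 0.00402) and −5.41 (1.07, adjusted p = 0.000988), and the first was lost without gland 330155 (0.0557). Ccl22, on chromosome 8 from 94745590 to 94751699, a Ccr4 ligand of dendritic cells and macrophages, fell from 26.1 to 36.0 CPM in glands to 0.844 to 2.64, 0.228 to 1.66 and 0.159 to 2.78 CPM in the tumor groups, in the same order. The differences were −4.29 (0.78, adjusted p = 0.000399), −5.19 (0.80, adjusted p = 9.55e-05) and −5.03 (0.80, adjusted p = 0.000152). Cxcl12, on chromosome 6 from 117168535 to 117181367, the Cxcr4 ligand of fibroblasts, adipose tissue and endothelium, had 157, 153 and 131 CPM in glands. Tumors had 93.2, 12.8, 15.1, 13.0 and 15.7 CPM (B1/P/Rbf), 20.5, 7.54, 13.4, 5.32 and 10.4 CPM (P/Rbf) and 6.23, 64.0, 55.0, 32.6 and 21.8 CPM (B1/P), and every tumor lay below every gland. The log2 fold changes in that order were −2.30 (0.70, adjusted p = 0.0158), −3.69 (0.72, adjusted p = 0.000736) and −2.03 (0.69, adjusted p = 0.0317). The last was lost without any one of the glands or of tumors 225068, 255232 and 248662 (0.0516 to 0.0778) and without TMM (0.0599). Leaving out single samples took the Cxcl12 difference for B1/P/Rbf from −3.38, without 208855, to −2.10, and it stayed called. Tumor 208855, the highest for Cxcl12, also had the most adipocyte (172 CPM) and endothelial (264 CPM) marker signal of the tumors.

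Ccl5 differed in direction from Ccl3 and Ccl4. The glands had 58.7, 91.1 and 61.1 CPM, and B1/P tumors were lower by a log2 fold change of −3.33 (0.85, adjusted p = 0.00616), with no overlap. P/Rbf tumors also lay below every gland, at −1.78 (0.82, adjusted p = 0.0976), which was not called, and it was called without 287842 (0.036) and with quantile normalization (0.0121). In the B1/P/Rbf group 210906, at 78.3 CPM, lay within the gland range. The summed B and T cell markers were likewise higher in the 3 glands (358 to 474 and 223 to 334 CPM) than in every tumor, as were Ccl19, Ccl21a, Cxcl13, Ccl22 and Cxcl12. The adipocyte and skeletal muscle markers did so as well, and so did the endothelial markers, whose 4 genes summed to 322 to 361 CPM in glands and 62.0 to 264 CPM in tumors, with each gene lower in all 15 tumors. The part of gland composition in these falls was not tested.

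**Figure D5:**
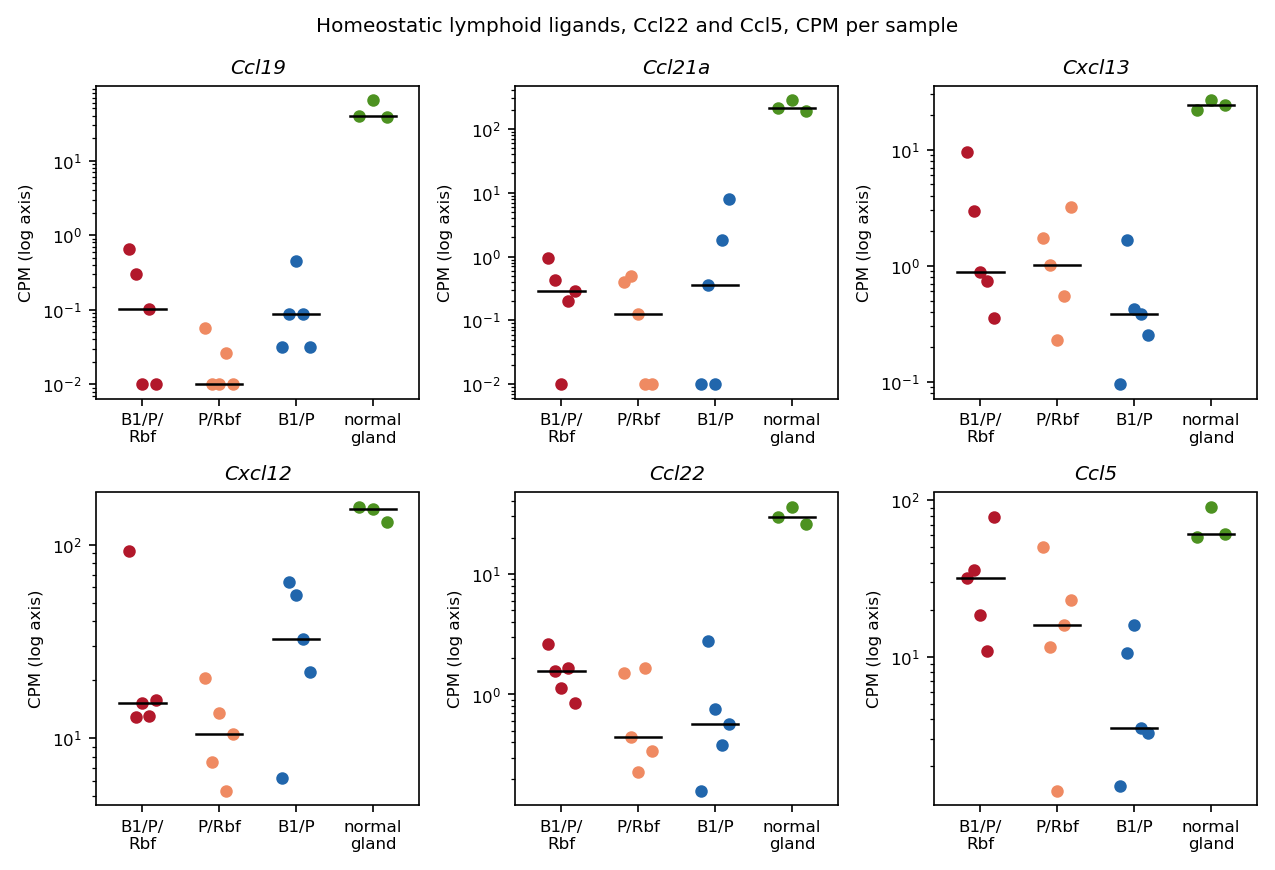
CPM per sample (points, log axis) of Ccl19, Ccl21a, Cxcl13, Cxcl12, Ccl22 and Ccl5 in the 4 groups, with a black line at each group's median and values of 0 drawn at 0.01. In every panel except that of Ccl5, all 15 tumors lie below all 3 glands.

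Of the other ligands called against gland, Cxcl16, on chromosome 11 from 70453983 to 70459984, a transmembrane ligand that is shed to attract Cxcr6-bearing T cells, had 22.8, 32.6 and 21.8 CPM in glands. It had 82.3, 117, 58.9, 54.1 and 96.8 CPM (B1/P/Rbf), 94.8, 112, 86.5, 72.1 and 69.2 CPM (P/Rbf) and 31, 163, 79.7, 33.7 and 38.3 CPM (B1/P) in tumors, of which 225068 overlapped the glands. Its log2 fold changes were 1.67 (0.48, adjusted p = 0.012), 1.76 (0.48, adjusted p = 0.00879) and 1.43 (0.48, adjusted p = 0.0283), and the B1/P/Rbf and B1/P calls were lost without gland 330154 or 330156 (0.0524 to 0.114) and with the library-set term (0.75 and 0.481). The B1/P call was also lost with only the groups compared (0.0865). Without tumor 225070 the B1/P difference was 0.83 and not called (0.0737). Cx3cl1, on chromosome 8 from 94772009 to 94782427, the other transmembrane ligand, recognised by Cx3cr1, ranged from 38.4 to 46.4 CPM in glands, 30.2 to 70.3 CPM in the B1/P/Rbf, 46.7 to 149.8 CPM in the P/Rbf and 43.3 to 52.8 CPM in the B1/P group, and every P/Rbf tumor lay above every gland. It was called higher in P/Rbf tumors, at 0.92 (0.34, adjusted p = 0.0428), and this was lost without 287842, 290845 or any one gland (0.0742 to 0.104), with quantile normalization, without the filter and with only the groups compared (0.0613 to 0.0882). Ccl20 in B1/P tumors was higher than in glands by 5.91 (1.94, adjusted p = 0.0266), lost without gland 330155 or 330156 (0.0975 and 0.105) and, with the genes of the full fit kept, without 246361 (0.0641), as well as with quantile normalization, with only the groups compared and with the library-set term (0.0741 to 0.271). In P/Rbf tumors Ccl11 was lower than in glands by a log2 fold change of −2.40 (0.63, adjusted p = 0.00651), with all 5 tumors below all glands. Ccl24, at 0 counts in these tumors, was at least 116-fold higher in glands. Both calls held without each sample in turn, but Ccl24 passed the filter only through other samples, so its call is not counted as support. Ccl25, a Ccr9 ligand outside the naming rule, was called higher by 0.90 (B1/P/Rbf) and 0.89 (B1/P), and both calls were lost without any one gland (0.0688 to 0.0926) and without 208857 or 210906 (0.0563 and 0.0573) or 225068 (0.0667), without the filter (0.0564 and 0.0699) and with the library-set term (0.491 and 0.196), and that for B1/P also with only the groups compared (0.0579). The 10 tested ligands called in no comparison of the full fit were Ccl6, Ccl8, Ccl9, Ccl12, Ccl17, Ccl28, Cxcl9, Cxcl11, Cxcl14 and Xcl1.

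Levels of different genes were compared per kilobase of merged exon. In glands Ccl21a was the most abundant ligand, at a mean of 263 CPM per kilobase, followed by Ccl5 at 73.3, Ccl19 at 54.6 and Cxcl15 at 35.3. Among B1/P/Rbf tumors Cxcl15 led at 60.5 CPM per kilobase, before Ccl8 at 42.2, Cxcl5 at 38.4 and Ccl5 at 36.5. In P/Rbf tumors Cxcl14 stood first at 225, with most of it from tumor 287845, followed by Cxcl15 at 68.4 and Cxcl16 at 28.8. In B1/P tumors Ccl8, at 38.8, and Ccl6, at 35.9 and mostly from 225070, came before Cxcl14 and Cxcl1, at 25.3 and 24.2. In each tumor group the ranges of neighbours in this order overlapped, so their order is not resolved. Ccl8 falls outside the naming rule, which used mean CPM not scaled to length. The B1/P/Rbf tumors held 47.8, 6.02, 2.15, 30.4 and 21.5 CPM, the P/Rbf tumors 3.25, 5.39, 4.28, 19.7 and 1.46, the B1/P tumors 11.1, 45.0, 29.6, 9.29 and 4.16 and the glands 8.64, 7.66 and 4.88 CPM. These groups overlapped, and the full fit called it in no comparison. In the glands Ccl21a stood clear of Ccl5, at 229 ± 46.2 CPM against 70.3 ± 18.0 CPM (SD, n = 3) over exons of 870 and 960 bases, and Ccl5 and Ccl19 overlapped. The summed ligand CPM ran from 399 to 1265 in B1/P/Rbf, 449 to 2188 in P/Rbf, 202 to 1441 in B1/P tumors and 764 to 978 in glands.

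Of the 23 receptor genes listed as partners of these ligands, 18 signalling and 5 atypical, 22 were tested, since Cxcr1 was below the filter. Against the B1/P group, the full edgeR fit called Ackr4, Ccr4 and Cx3cr1 lower for B1/P/Rbf and Ackr4 and Ccr4 lower for P/Rbf. These 3 (13.6%) and 2 (9.09%) of 22 stand beside 9.29% and 10.8% of all genes called lower, so the shares are near the background. That fit called no receptor higher in either comparison, where 7.36% and 8.43% of all genes were called higher. DESeq2 called 2 receptors higher and 3 lower for B1/P/Rbf, and quantile normalization 1 higher and 2 lower. For P/Rbf the library-set term gave 1 higher and 1 lower. Ackr4, an atypical receptor that removes Ccl19, Ccl21 and Ccl25, had 2.03, 0.0889, 1.43, 1.72 and 1.04 CPM in B1/P tumors and 1.68, 1.01 and 1.35 CPM in glands. It had at most 0.0567 CPM in a B1/P/Rbf and 0.152 CPM in a P/Rbf tumor. B1/P tumor 225070 fell within the P/Rbf range, and the other 4 B1/P tumors lay above both T121 groups. Its log2 fold changes were −5.60 (1.01, adjusted p = 0.00182) for B1/P/Rbf and −4.18 (0.91, adjusted p = 0.00538) for P/Rbf, and both were called without each tumor in turn. Ackr4 passed the filter on low counts only through B1/P tumors and glands, where it is high, so its calls are not counted as support. It had no value when only the groups compared were fitted. Ccr4, the receptor of Ccl17 and Ccl22 on T cells, had 0.0636, 0.977, 0.930, 0.0887 and 0.0946 CPM in B1/P tumors, carried by 225070 and 246361, and at most 0.158 CPM in a T121 tumor, with log2 fold changes of −2.86 (0.94, adjusted p = 0.0466) and −2.85 (0.94, adjusted p = 0.0434). The Ccr4 calls were lost without 225070 or 246361 (0.0932 to 0.109), without 208855, 208863, 209490 or 210906 for B1/P/Rbf (0.0789 to 0.0872) and without 287842, 287845, 290845 or 290860 for P/Rbf (0.0763 to 0.0866). Both were lost with quantile normalization (0.13 and 0.258) and without the filter (0.0694 and 0.0644), and with the library-set term the P/Rbf difference was −0.65 (0.752). Ccr4 likewise passed the filter only through 225070, 246361 and the glands, and its calls are not counted as support. Cx3cr1, the receptor of Cx3cl1 on macrophages and monocytes, had 15.5, 15.9, 6.59, 7.84 and 14.1 CPM in the B1/P/Rbf and 12.3, 47.9, 41.4, 26.3 and 21.8 CPM in the B1/P group, at −1.32 (0.40, adjusted p = 0.0311). That call was lost without 225070, 246361, 208863 or 209490 (0.0699 to 0.0753) and with only the groups compared (0.0611). Its ligand Cx3cl1 was not called between these groups. Between the T121 groups no receptor was called, where 5 of 22 had an unadjusted p below 0.05 in edgeR (22.7%, beside 16.1% of all genes) and DESeq2 called 3 (13.6%, beside 5.33%).

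Against normal gland, 3 receptors were higher and 9 lower for B1/P/Rbf, 4 higher and 8 lower for B1/P, and 2 higher and 12 lower for P/Rbf. The shares higher were 13.6%, 18.2% and 9.09%, beside 17.1%, 16.8% and 17.4% of all genes, and the shares lower 40.9%, 36.4% and 54.5%, beside 20.0%, 16.9% and 20.3%. The lower calls of each group include Ccr6 (at most 0.355 CPM in a tumor, at least 3.45 CPM in a gland) and Ccr8 (at most 0.207 and at least 0.576 CPM). Both passed the filter on low counts only through the glands, so their calls are not counted as support. The following genes were picked after their values were seen. Ccr7, the receptor of Ccl19 and Ccl21a, had 40.7 to 61.1 CPM in glands and 0.827 to 4.06, 0.329 to 2.74 and 0.223 to 2.46 CPM in the tumor groups. Cxcr5, the receptor of Cxcl13, had 16.6 to 21.5 CPM in glands and at most 0.714 CPM in a tumor. Both receptors and their ligands were thus lower in every tumor than in every gland, as were the B and T cell markers. Ccr1, a receptor of Ccl3, Ccl6 and Ccl9 on myeloid cells, was called higher in all 3 groups by the full fit, from 0.720 to 2.35 CPM in glands to 7.30 to 23.9, 4.11 to 9.60 and 5.09 to 72.3 CPM. Its B1/P/Rbf call was lost with the library-set term, which left 0 receptor rises for that group. The same term left 2 receptor rises for B1/P and 2 for P/Rbf. Cxcr2, the receptor of the ELR+ ligands, was called in no comparison. It had 1.52, 2.00 and 0.914 CPM in glands. Tumors had 14.9, 1.67, 10.7, 0.837 and 1.72 CPM (B1/P/Rbf), 0.489, 2.56, 1.59, 2.32 and 2.08 CPM (P/Rbf) and 0.0636, 51.1, 10.7, 0.503 and 0.914 CPM (B1/P), so 4 of 15 tumors (208855, 208863, 225070 and 246361) exceeded 10 CPM.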

How the data were processed

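RNA-seq was performed on 15 mammary tumors and 3 normal glands. As the authors deposited them, the values are expected counts per gene, estimated with RSEM (version 1.3.0 in the submitters' processing notes) after trimming with cutadapt 1.18. They were not normalized. All 55450 gene identifiers match GENCODE M21 (GRCm38), although the methods also name a human annotation. Whether counting used strand is not given in the sources used here. Depth was 27661173 to 37794889 counts per sample, median 33802255, and expected counts were rounded to whole numbers before testing.

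Genes with low counts were removed (filterByExpr, minimum count 10), counts were scaled by TMM, and all 18 samples were fitted by genotype group with edgeR 4.0.16 (quasi-likelihood, R 4.3.3). Benjamini-Hochberg adjusted p-values cover all 19186 genes, with calls at 0.05, and every adjusted p given is of this kind. The models were tested on simulated data. Each sample is 1 mouse. Alternatives were DESeq2 1.42.0, limma 3.58.1 (voom with quantile normalization, with and without the study's filter of log2 CPM 6 in 6 samples), no TMM, no filter, only the groups compared, a term for 2 inferred library sets, and leaving out each sample. The 2 library sets were inferred from expression in these data.

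Ligands named are those called between tumor groups, those with the 5 largest rises or falls against gland, those with the 5 highest mean CPM per group (not scaled to length), and receptors called between tumor groups. The members and lists were chosen with earlier results of these data known. Promoters are RefSeq sequences of GRCm38.p6, scanned by letters.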

Additional observations from a re-analysis of the deposited data

Results flagged for a closer look

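In groups of 5 tumors, the gap between the most extreme sample and its nearest neighbour, divided by the group's range on the log2 CPM scale, passed Dixon's critical value of 0.71 in 4 of 66 combinations of ligand and group. Chance alone flags about 1 in 20. Cxcl12 was at 93.2 CPM in B1/P/Rbf tumor 208855, against 12.8 to 15.7 CPM in the other 4. Cxcl1 was at 0.0526 CPM in P/Rbf tumor 287822, against 7.54 to 31.5 CPM in the others. Ccl19 was at 0.452 CPM in B1/P tumor 246361, from 18 counts, against 0.0315 to 0.0889 CPM in the others, from 1 to 3 counts. Ccl6 was at 280.0 CPM in B1/P tumor 225070, against 6.55 to 18.0 CPM in the others.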

How the results depend on the processing

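Across the 6 comparisons 58 calls of a ligand were made, of which 19 held in every alternative fit that gave the gene an adjusted p and 30 without each sample in turn. For Ccl20, which fell below the filter without 225070, 246361 or 248662, these fits kept the genes of the full fit, a choice made after the data were seen. In the comparison of B1/P/Rbf with B1/P tumors, 4 ligands were called, 2 with quantile normalization, 0 when the study's filter was added, 1 when only the groups compared were fitted, and 1 to 4 without single tumors. The genes called in all were 3195, 3077, 632, 2039 and 2315 to 3467. For P/Rbf against B1/P, 5 became 10 with DESeq2, 0 with quantile normalization, with or without the study's filter, 0 with only the groups compared, 1 with the library-set term, and 2 to 7 without single tumors. Over all genes 3684 calls became 5028, 3159 (652 with the study's filter), 1507, 2008 and 2763 to 3924. For B1/P/Rbf against P/Rbf, 0 became 3 with DESeq2, where all genes went from 54 to 1023. Against gland, the study's filter left 0 calls for each of the 3 tumor groups, where Cxcl15 and Cxcl16 were the 2 ligands kept in the test, and Cxcl16, called in the full fit, had an adjusted p of 0.33 to 0.53. The library-set term left 2 of 15 calls for B1/P/Rbf and 6 of 18 for B1/P, of which 0 and 1 were higher, while all genes went from 7108 to 3879 and from 6481 to 5012. Leaving out single samples gave 11 to 16 calls for B1/P/Rbf, 7 to 18 for B1/P (7 without gland 330156, 10 without 330154 or 330155) and 12 to 17 for P/Rbf, where the full fit gave 16, with 4993 to 6930, 4320 to 6435 and 5157 to 7259 calls over all genes. With the library-set term the log2 fold change turned to −0.70 for Ccl5 and −0.75 for Ccl27a in B1/P/Rbf against P/Rbf, and to 0.59 for Ccl6 in P/Rbf against B1/P, none of them called in the full fit. Without single samples the Ccl6 difference ran from −2.57 to 0.33, the last without 225070. The cause of these changes was not tested.

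The glands number 3, so calls against them rest on few samples, and levels under 1 CPM rest on few reads. Among tumors, most counts of Ccl20, Ccl24 and Ccr4 came from 1 to 3 samples. No paired analysis was possible because each sample is a different mouse and the groups share no replicate numbers.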
